A study of Bos taurus with 23 samples.

Results

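BHLHE40 (ENSBTAG00000009863), TRIB1 (ENSBTAG00000023179) and RNF19A (ENSBTAG00000017833) are 3 of the 24616 genes counted in endometrial biopsies of 23 Holstein cows. They were selected on measured values: a skewed spread across these cows, co-variation of the 3 genes, and their relation to parity and days from calving. The study placed BHLHE40 and TRIB1 among its UP genes and RNF19A among its DOWN genes for pregnancy, partly on Holstein cows of this set. Spread, co-variation, direction with pregnancy and the relations to parity and days are therefore a description and no independent evidence. The adjusted p-values given with them describe the fit over all genes. The permutation p-values for days were computed for each of the 3 genes alone and are not adjusted. All 3 genes passed the filter on low counts, which kept 14852 genes.

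Each cow gave 1 library, prepared from a biopsy of the uterine lining taken on day 6 to 8 of the cycle, before an in-vitro produced embryo was transferred in a following cycle. By slaughter between days 26 and 47, 12 cows were pregnant and 11 were non-pregnant. The labels name no treatment. Parity number was 1 in 12 cows, 2 in 5 and 3 in 6, and days from last calving to transfer ran from 128 to 274 (median 174). With 1 biopsy per cow taken at a single time, induction of a gene could not be observed, only its level. A biopsy holds epithelium, stroma, vessels and blood cells, and fewer cells of a type and less RNA per cell cannot be told apart in it. The files name genes by Ensembl identifier, and symbols were at hand for the study's gene list alone, so defining markers of the endometrium or of other cell types could not be checked.

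BHLHE40 is a basic helix-loop-helix transcription factor, mostly a repressor, which binds E-box motifs, belongs to the circadian clock network and is known to rise with hypoxia and immune activation. TRIB1 is a pseudokinase that brings substrates such as C/EBP alpha to the ubiquitin ligase COP1, listed here under its older symbol RFWD2. RNF19A, also called dorfin, is an E3 ubiquitin ligase of the RING-between-RING type. The first 2 are known as genes whose transcripts respond quickly to signals. RNF19A shares the ubiquitin system with TRIB1.

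Libraries held 6920879 to 27357249 counts in genes. Values are given as CPM, the counts of a gene scaled to library size after TMM normalization. They compare cows within a gene, and levels of different genes were not compared because transcript lengths were not used. A principal component analysis of all genes set 4 cows apart. Pregnant replicates 23 and 22, with non-pregnant replicates 6 and 4, took positions from 57.1 to 115 along its first axis (42.3% of the variance), and the other 19 cows positions from -31.1 to 10.5. Reads outside genes here means reads that the counting assigned to no feature, and whether these include reads in introns is not given. They made up 75.5% of pregnant replicate 20 and 76.7% of pregnant replicate 21, against 39.2% to 59.6% elsewhere. Pregnant replicate 5 had a TMM factor of 0.765, and the other 22 libraries had factors from 0.920 to 1.10. Results are given with and without the 4 cows, and pregnant replicates 20 and 21, where leaving these out changed them. Pregnant replicate 5 was left out only when 1 cow at a time was dropped.

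BHLHE40 was low in most cows and very high in a few. Its level was 552 CPM in pregnant replicate 23, 205 CPM in non-pregnant replicate 6, 167 CPM in non-pregnant replicate 4 and 64.8 CPM in pregnant replicate 5. Pregnant replicate 22 followed with 30.6 CPM, and the other 18 cows ran from 8.54 CPM in non-pregnant replicate 19 to 23.7 CPM in pregnant replicate 18. The median was 17.0 CPM, and 4 cows exceeded 2 times that level. These 4 cows came from both outcomes, and 3 of them were among the 4 apart on the first component. Counting error was small beside these gaps. The 95% Poisson interval in pregnant replicate 23 was 538 to 566 CPM, and the lowest raw count, 105 in pregnant replicate 20, gave 9.79 to 14.5 CPM (these intervals cover counting error only).

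TRIB1 had the same 4 cows on top. Its level was 576 CPM in pregnant replicate 23, 366 CPM in non-pregnant replicate 4, 167 CPM in non-pregnant replicate 6 and 104 CPM in pregnant replicate 5. Pregnant replicate 7 reached 80.7 CPM and pregnant replicate 22 reached 58.0 CPM, while the other 17 cows lay between 20.4 CPM in non-pregnant replicate 19 and 38.5 CPM in pregnant replicate 20. With a median of 27.8 CPM, 6 cows exceeded 2 times the median. Pregnant replicate 7, whose TRIB1 was 2.90 times the median, had BHLHE40 at 1.36 times its median, so the order of the cows was not identical for both genes.

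RNF19A varied far less. The highest levels were 357 CPM in pregnant replicate 23, 352 CPM in non-pregnant replicate 4, 288 CPM in pregnant replicate 21 and 237 CPM in non-pregnant replicate 6. Pregnant replicate 22 had 182 CPM, and the other 18 cows lay between 114 CPM in pregnant replicate 8 and 166 CPM in non-pregnant replicate 19, around a median of 145 CPM over all 23 cows. Pregnant replicate 21, the library with the fewest counts in genes, was 1.99 times the median for RNF19A but 0.962 times the median for BHLHE40. Pregnant replicate 5, next after the 3 highest cows for BHLHE40 and TRIB1, had RNF19A at 128 CPM, below its median. The part of read placement or RNA quality in the value of replicate 21 was not tested.

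**Figure D1:**
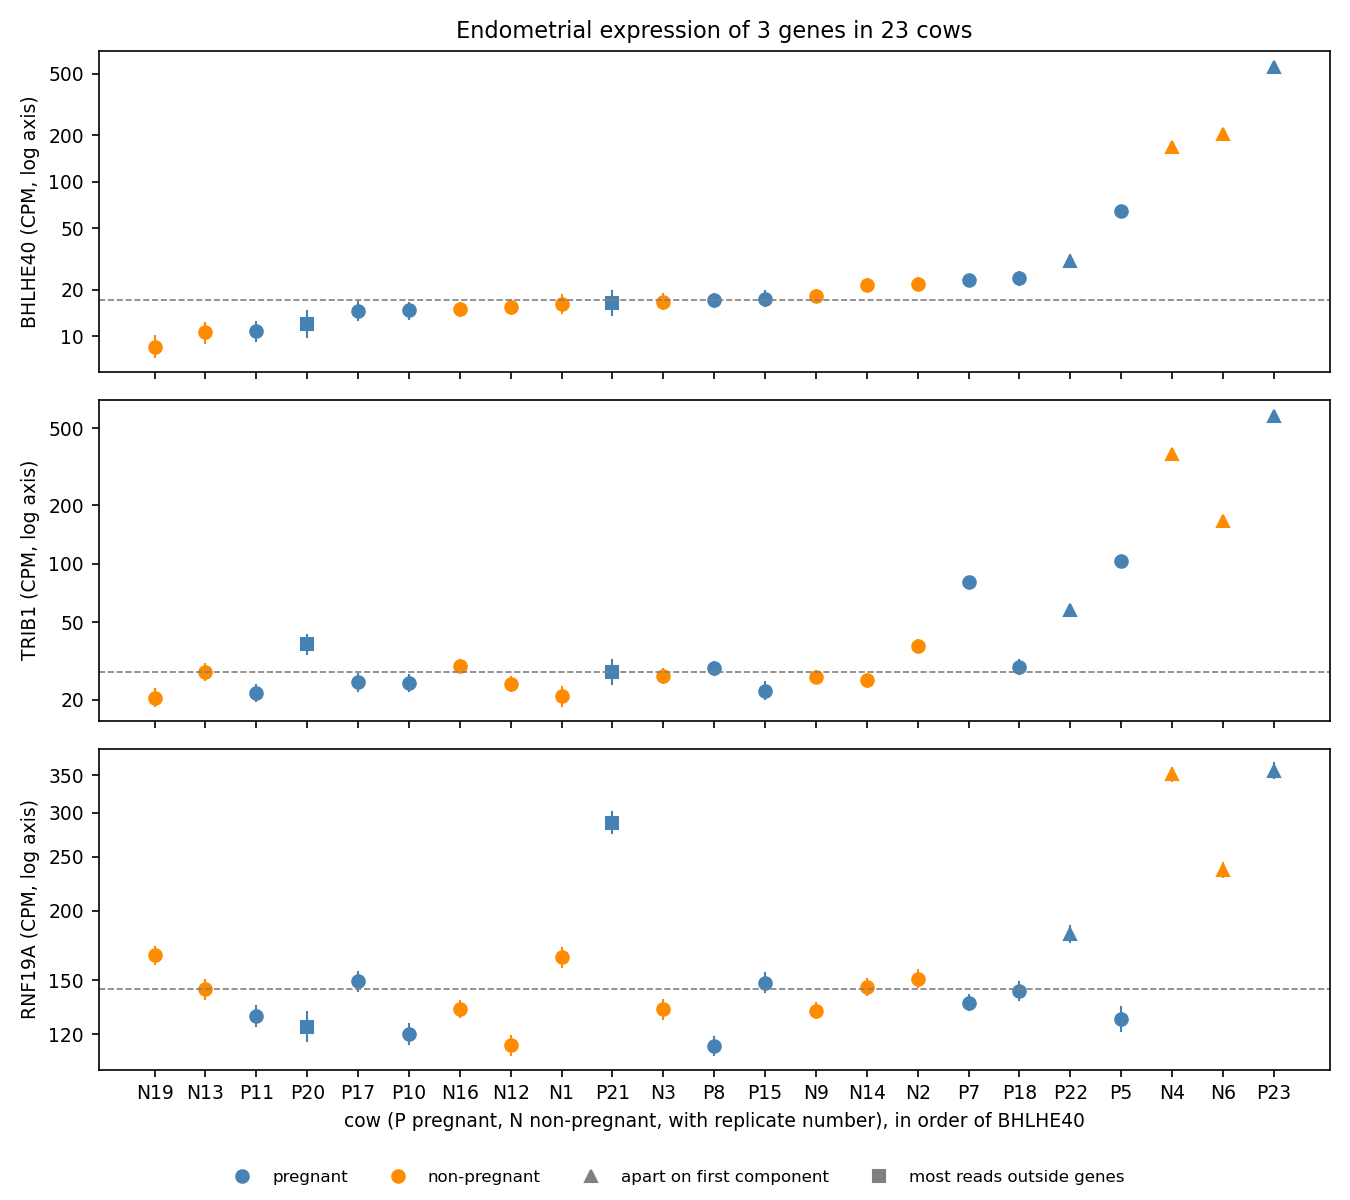
Level of BHLHE40, TRIB1 and RNF19A in CPM (log axis) in each of the 23 cows, ordered by BHLHE40. Points are libraries, vertical lines are 95% Poisson intervals and the dashed line is the median (17.0, 27.8 and 145 CPM). Pregnant replicate 23 and non-pregnant replicates 4 and 6 are high in all 3 panels, and pregnant replicate 21 is high in the RNF19A panel alone.

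The highest cow stood 32.5 times above the median for BHLHE40, 20.7 times for TRIB1 and 2.47 times for RNF19A. Of all genes tested, 0.855%, 1.36% and 29.5% had a ratio at least as large. Skewness of CPM was 3.46 for BHLHE40, 2.91 for TRIB1 and 1.82 for RNF19A, and 0.896%, 3.1% and 16.3% of genes were at least as skewed. The 3 highest cows held 70.4% of the summed CPM of BHLHE40, 61.4% of that of TRIB1 and 25.6% of that of RNF19A. The biological coefficient of variation estimated by edgeR within pregnancy status was 1.15 for BHLHE40 and 1.02 for TRIB1, where genes of like abundance had 0.380 and 0.383. For RNF19A it was 0.366, beside 0.401 for genes of like abundance.

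Without the 4 cows apart on the first component, the highest of the remaining 19 was 3.96 times the median for BHLHE40 and 3.91 times for TRIB1. Both values came from 1 cow, pregnant replicate 5, the library with the TMM factor of 0.765. For BHLHE40 the next of the 19 was pregnant replicate 18, at 23.7 CPM (1.39 times the median of all 23 cows). For TRIB1 it was pregnant replicate 7, at 80.7 CPM (2.90 times). The 19 cows without replicate 5 were not tested. For RNF19A it was 2.10 times, in pregnant replicate 21, and skewness of the 3 genes was then 3.21 for BHLHE40, 2.49 for TRIB1 and 3.02 for RNF19A, with 1.10%, 4.05% and 1.61% of genes at least as skewed. Over all 23 cows, Spearman's rho between log2 CPM and the position on the first component was 0.63 for BHLHE40, 0.70 for TRIB1 and 0.49 for RNF19A. In the other 19 cows it was 0.36, 0.50 and 0.12. The rho with the share of reads outside genes was 0.044 for BHLHE40, -0.0020 for TRIB1 and 0.28 for RNF19A, and that with log2 counts in genes was 0.098, -0.056 and -0.35. These relations share the libraries and are given as a description.

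BHLHE40 and TRIB1 varied together across cows, and RNF19A joined them in few cows. Over the 23 cows, Spearman's rho of log2 CPM was 0.72 between BHLHE40 and TRIB1, 0.39 between BHLHE40 and RNF19A, and 0.27 between TRIB1 and RNF19A. Of all genes tested, 1.80% had a rho with BHLHE40 at least as high as that of TRIB1, whereas 19.7% had one at least as high as that of RNF19A. Pearson's r, which weighs the extreme cows, was 0.95, 0.73 and 0.72.

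The relation with RNF19A rested on the 4 cows apart on the first component. Without them, rho between BHLHE40 and TRIB1 was 0.51 in the other 19 cows, and 6.37% of genes had one at least as high with BHLHE40. The rho of RNF19A then was -0.026 with BHLHE40 and -0.23 with TRIB1, that is, near 0 or below. Without pregnant replicates 20 and 21 as well, rho between BHLHE40 and TRIB1 was 0.64 in 17 cows. With the means of pregnancy status and parity class removed, the 23 cows gave 0.87, 0.48 and 0.45 for the 3 pairs in the same order. The removed means included the extreme cows, and the part of these cows in the higher values was not tested.

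**Figure D2:**
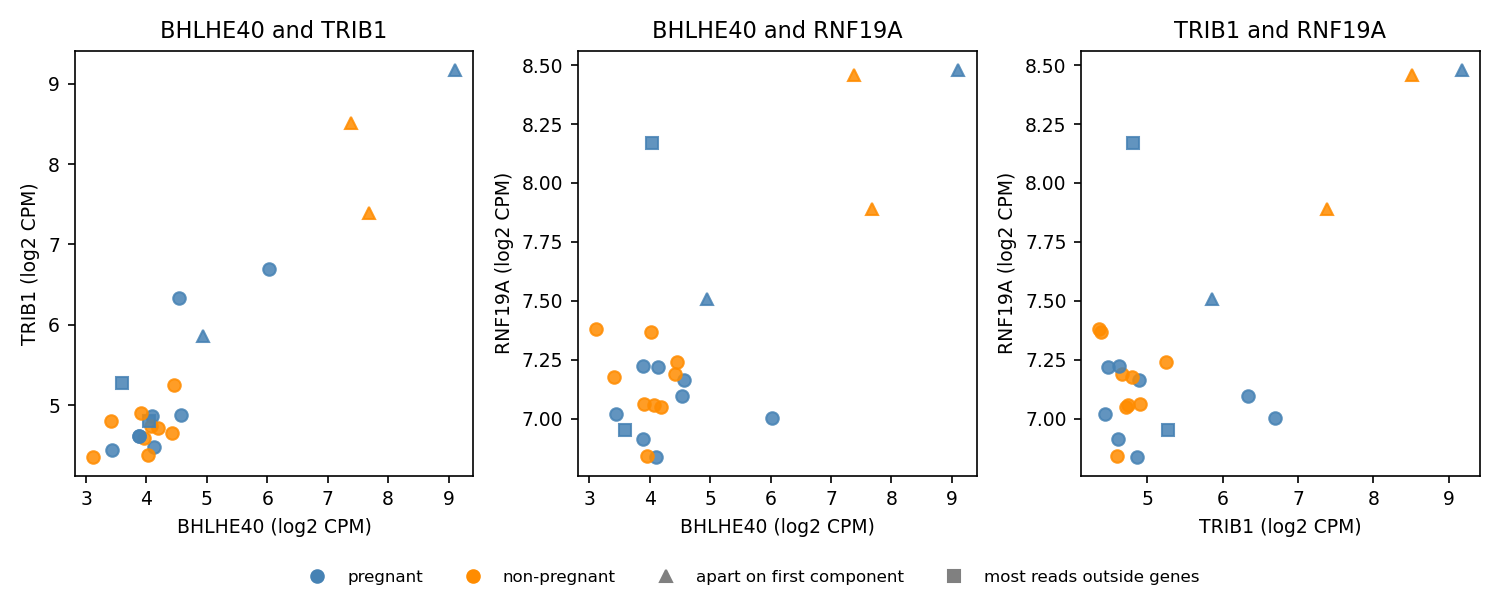
Log2 CPM of each pair of the 3 genes, with 1 point per cow coloured by pregnancy status and shaped by library type (triangles, apart on the first component; squares, most reads outside genes). BHLHE40 and TRIB1 line up over 23 cows (rho 0.72), and in the panels with RNF19A the slope comes from triangles above a level cloud (rho -0.026 and -0.23 without them).

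Genes with a high rho were listed for each member. A rho above 0.7 over the 23 cows was found for 363 genes with BHLHE40 (2.44% of genes), 187 with TRIB1 (1.26%) and 96 with RNF19A (0.646%). Members aside, BHLHE40 and TRIB1 shared 56 of these, which were 15.5% of the BHLHE40 list and 30.1% of the TRIB1 list. RNF19A shared 1 with BHLHE40 (1.04% of the RNF19A list, beside 2.44% of all genes) and 0 with TRIB1 (beside 1.26% of all genes). In the 19 cows without those apart on the first component, 129 genes exceeded 0.7 with BHLHE40 (0.869%), 21 with TRIB1 (0.141%) and 58 with RNF19A (0.391%). No gene was shared between any pair there. At such small shares few or no shared genes would be met by chance too, so the missing overlap is no result about the members. In the 19 cows, 80 of the 363 stayed above 0.7 for BHLHE40, 14 of the 187 for TRIB1 and 19 of the 96 for RNF19A. Every gene of the 3 lists kept a rho above 0. The 19 cows are among the 23 on which the lists were made, so this was nearly fixed in advance. Below -0.7 there were 242 (1.63%), 41 (0.276%) and 106 (0.714%) genes over the 23 cows.

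The closest match to BHLHE40 over the 23 cows was ENSBTAG00000014636, with rho 0.92 (0.88 in the 19 cows) and a range from 27.7 to 299 CPM. It was highest in pregnant replicate 23, as BHLHE40 was. The next was ENSBTAG00000014966, with rho 0.90 (0.84 in the 19 cows), which was at 285 CPM in non-pregnant replicate 4 and 214 CPM in pregnant replicate 23. The lowest rho with BHLHE40 belonged to ENSBTAG00000021033 (-0.88, and -0.82 in the 19 cows). The highest rho with TRIB1 was 0.85, and the highest with RNF19A was 0.88. Averaged over the 3 members, the 10 highest means of other genes lay between 0.67 and 0.71. None of these genes has a symbol in the sources used here.

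Among the genes with symbols, the other 47 of the study's list, the closest to BHLHE40 over the 23 cows were DIDO1, a chromatin reader linked to apoptosis (rho 0.68), SEL1L, the adaptor of endoplasmic reticulum-associated degradation (0.55), and RIN3, an activator of the early endosome GTPase Rab5 (0.50). SMARCAL1, an annealing helicase of stalled replication forks, had 0.48, and CLK2, a kinase of splicing factors, had 0.46. In the 19 cows these 5 had 0.46, 0.51, 0.47, 0.49 and 0.52. The lowest were SLC35A3, the Golgi carrier of UDP-N-acetylglucosamine, at -0.77 (-0.63 in the 19 cows), ACADM, which starts oxidation of medium-chain fatty acids, at -0.65 (-0.75), and ZSCAN12, a zinc finger protein, at -0.64 (-0.40). SLC35A3 was at 70.9 CPM in non-pregnant replicate 4 and 77.0 CPM in pregnant replicate 5, the 2 lowest levels of all 23 cows, which were both high for BHLHE40.

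TRIB1 was closest to RIN3 (rho 0.55, and 0.48 in the 19 cows), followed by DIDO1 (0.49 and 0.12), SEL1L (0.40 and 0.23), PAXIP1, a DNA damage response adaptor (0.39 and 0.30), and HHEX, a homeobox factor (0.37 and 0.40). Its lowest were SLC35A3 (-0.58, and -0.32 in the 19 cows), ZSCAN12 (-0.58 and -0.30) and SKA2, a spindle and kinetochore protein (-0.48 and -0.14). SLC35A3 and ZSCAN12 are DOWN genes, and SKA2 is an UP gene. RFWD2, the ligase to which TRIB1 brings its substrates, stayed within 94.8 and 156 CPM in all cows and did not follow TRIB1 closely: rho was 0.23 over the 23 cows and -0.084 in the 19. In pregnant replicate 23, where TRIB1 was 20.7 times its median, RFWD2 was at 127 CPM against a median of 121 CPM.

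RNF19A had other neighbours. STAG2, a cohesin subunit, had rho 0.77 (0.64 in the 19 cows), WDR20, a partner of ubiquitin-specific proteases, 0.62 (0.64), and CTBP2, a transcriptional corepressor, 0.54 (0.35). These 3 stand with RNF19A in the DOWN list, and the next in order, DIDO1 (0.38, and 0.0018 in the 19 cows) and RFWD2 (0.36 and 0.10), are UP genes. Against RNF19A ran COL26A1, a collagen (-0.69, and -0.51 in the 19 cows), CHAF1A, a subunit of chromatin assembly factor 1 (-0.67 and -0.54), and DUS2, a tRNA dihydrouridine synthase (-0.66 and -0.43), all of the UP list. COL26A1 was at 0.986 CPM in non-pregnant replicate 6 and 1.86 CPM in pregnant replicate 23, but at 42.0 CPM in pregnant replicate 7.

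The signs of rho with the study's UP and DOWN lists were counted for each member. BHLHE40 had a positive rho with 16 of the 30 other UP genes and a negative rho with 13 of 17 DOWN genes over the 23 cows. In the 19 cows these counts were 29 of 30 and 14 of 17, where 53.8% of all genes tested were positive. TRIB1 was positive with 17 of 30 UP genes and negative with 14 of 17 DOWN genes over the 23 cows, and with 23 and 16 in the 19 cows, where 53.0% of all genes were positive. RNF19A was negative with 22 of 30 UP genes and positive with 9 of the 17 other DOWN genes over the 23 cows, and with 20 and 11 in the 19 cows, where 48.0% of all genes were positive. Over the 23 cows 49.9% of all genes were positive with BHLHE40, 49.1% with TRIB1 and 49.4% with RNF19A. The lists were chosen for pregnancy partly on these cows, so these counts are not independent evidence of direction.

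**Figure D3:**
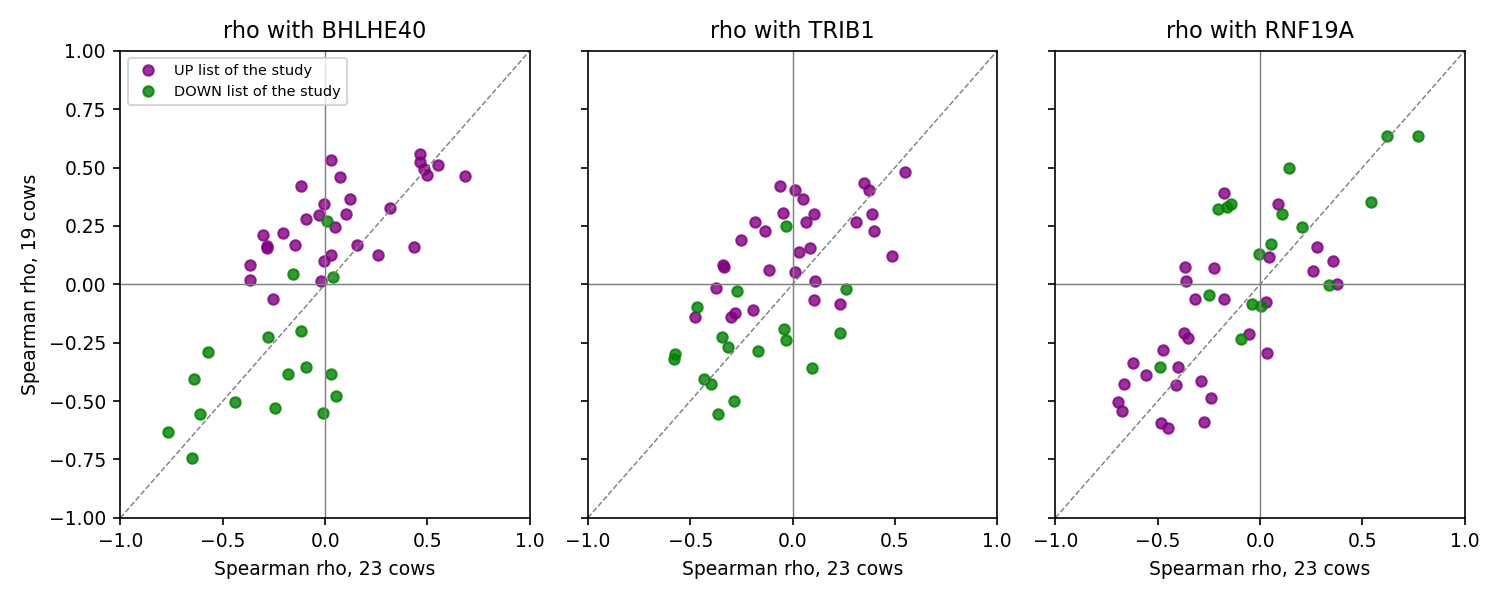
Spearman's rho of each of the 47 other genes of the study's list with BHLHE40, TRIB1 and RNF19A, over 23 cows (horizontal axis) and over 19 cows without those apart on the first component (vertical axis). The dashed line marks equal values, and the UP genes lie mostly above it for BHLHE40, with 29 of 30 above 0 in the 19 cows.

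The first comparison asked whether the level at the biopsy differed by the later outcome. For none of the 3 genes was a difference between pregnant and non-pregnant cows detected beyond the spread of the cows. BHLHE40 ranged from 10.7 to 552 CPM (median 17.2) in 12 pregnant cows and from 8.54 to 205 CPM (median 16.7) in 11 non-pregnant cows. TRIB1 ranged from 21.6 to 576 CPM (median 29.2) in pregnant and from 20.4 to 366 CPM (median 26.5) in non-pregnant cows. RNF19A ranged from 114 to 357 CPM (median 140.1) and from 115 to 352 CPM (median 146). The groups overlapped almost fully for all 3.

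The log2 fold change, pregnant against non-pregnant, was 0.50 (SE 0.76) for BHLHE40, 0.30 (SE 0.66) for TRIB1 and -0.018 (SE 0.21) for RNF19A. The adjusted p-values of edgeR's quasi-likelihood test were 0.840, 0.904 and 0.985. Of 14852 genes, 0 (0%) passed an adjusted p of 0.05 and 1556 (10.5%) had an unadjusted p under 0.05, while DESeq2 called 8, none of them a member. One cow decided the sign: without pregnant replicate 23 the log2 fold change was -1.08 (SE 0.54) for BHLHE40 and -0.75 (SE 0.51) for TRIB1, and without non-pregnant replicate 4 it was 0.93 and 1.08. Without the 4 cows apart on the first component it was 0.40 (SE 0.28) for BHLHE40, 0.57 (SE 0.27, adjusted p = 0.313 by edgeR, from 0.298 to 0.983 over all alternatives) for TRIB1 and 0.034 (SE 0.14) for RNF19A. With parity class and days as covariates it was -0.063 for BHLHE40 and -0.097 for TRIB1.

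TRIB1 had the largest difference between parity classes of the 3 genes, though it did not pass adjustment over all genes. In 12 cows of parity 1 its lowest value was 24.5 CPM, its median 38.2 CPM and its highest 576 CPM. In 11 cows of parity 2 or 3 the lowest was 20.4 CPM, the median 24.4 CPM and the highest 167 CPM, in non-pregnant replicate 6. The next highest of these was 29.4 CPM, and 8 of 12 cows of parity 1 lay above it. Conversely, 10 of 11 cows of parity 2 or 3 lay below the median of parity 1.

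The log2 fold change of TRIB1, parity 2 or 3 against parity 1 with pregnancy status in the model, was -1.72 (SE 0.64), with an adjusted p of 0.981 by edgeR. No gene of 14852 passed the adjusted threshold (0%), and 520 (3.50%) had an unadjusted p under 0.05. DESeq2 also called 0. By an exact two-sided Wilcoxon rank-sum test on log2 CPM, added after the values were seen, 0 genes (0%) passed and 533 (3.59%) had an unadjusted p under 0.05 (adjusted p = 0.973 for TRIB1). Without the 4 cows apart on the first component the log2 fold change was -0.78 (SE 0.22, adjusted p = 0.991 by edgeR), with TRIB1 from 24.5 to 104 CPM in 9 cows of parity 1 and from 20.4 to 29.4 CPM in 10 of parity 2 or 3. The direction was the same without them and the change smaller, and over all 36 alternatives tried for TRIB1 the adjusted p ran from 0.345 to 1. The 104 CPM came from pregnant replicate 5, the library with the TMM factor of 0.765, and pregnant replicate 7 followed with 80.7 CPM. The parity difference without the 4 cows and replicate 5 together was not tested.

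For BHLHE40 and RNF19A the parity classes overlapped more. BHLHE40 had a median of 19.9 CPM (10.6 to 552) in parity 1 and 16.4 CPM (8.54 to 205) in parity 2 or 3, with a log2 fold change of -1.32 (SE 0.87, adjusted p = 0.981 by edgeR). Without pregnant replicate 23 it was -0.32 (SE 0.56), and without non-pregnant replicate 6 it was -2.11 (SE 0.68, adjusted p = 0.426 by edgeR, the lowest over all alternatives, where the highest was 1). RNF19A had medians of 141 CPM (114 to 357) and 146 CPM (115 to 288), with a log2 fold change of -0.11 (SE 0.22, adjusted p = 0.983), which was 0.20 (SE 0.14) without the 4 cows.

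**Figure D4:**
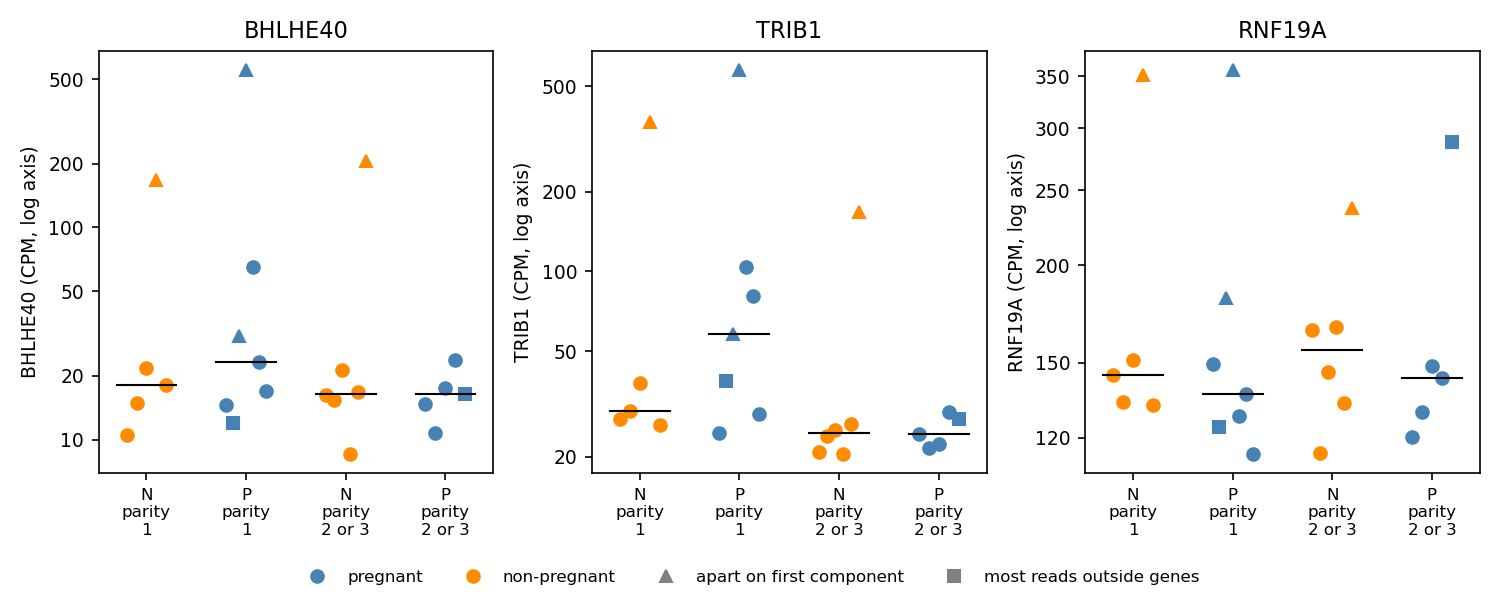
CPM (log axis) of each gene in non-pregnant (N) and pregnant (P) cows of parity 1 and of parity 2 or 3. Points are cows, horizontal bars are group medians, triangles are cows apart on the first component and squares are libraries with most reads outside genes. For TRIB1 the pregnant cows of parity 1 have the highest median (58.0 CPM, and 38.5 CPM without the triangles).

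By parity and outcome together, the median of TRIB1 was 58.0 CPM in 7 pregnant cows of parity 1 (24.5 to 576), 29.9 CPM in 5 non-pregnant cows of parity 1, 24.6 CPM in 6 non-pregnant cows of parity 2 or 3 (20.4 to 167) and 24.4 CPM in 5 pregnant cows of parity 2 or 3. The 5 non-pregnant cows of parity 1 had 26.2, 27.7, 29.9, 37.9 and 366 CPM. The 5 pregnant cows of parity 2 or 3 had 21.6, 22.3, 24.4, 27.8 and 29.4 CPM. Each group overlapped its neighbour in this order. Without the 4 cows apart on the first component, the medians were 38.5, 28.8, 24.0 and 24.4 CPM in the same order of groups.

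BHLHE40 followed the same order at the top, with medians of 23.2 CPM in pregnant cows of parity 1 (12.0 to 552), 18.1 CPM in non-pregnant cows of parity 1, 16.5 CPM in non-pregnant cows of parity 2 or 3 (8.54 to 205) and 16.4 CPM in pregnant cows of parity 2 or 3. The second group had 10.6, 14.9, 18.1, 21.7 and 167 CPM, and the last one 10.7, 14.6, 16.4, 17.4 and 23.7 CPM. Without the 4 cows apart on the first component, the BHLHE40 medians lay close together, at 17.0, 16.5, 16.2 and 16.4 CPM. For RNF19A the order was different, from 155 CPM in non-pregnant cows of parity 2 or 3 (115 to 237) to 137 CPM in pregnant cows of parity 1 (114 to 357), and all 4 groups overlapped.

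Whether the pregnancy difference itself changed with parity class was tested as an interaction. The log2 interaction was -2.65 (SE 1.47, adjusted p = 0.988 by edgeR) for BHLHE40, -1.33 (SE 1.20) for TRIB1 and 0.15 (SE 0.44) for RNF19A, with the same adjusted p. By edgeR 0 genes (0%) passed and 443 (2.98%) had an unadjusted p under 0.05, and DESeq2 called 0. With 5 to 7 cows per group, these standard errors leave a wide range of differences possible for BHLHE40 and TRIB1.

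No relation with days from calving was detected for the 3 genes. The slope of log2 expression per 100 days was 0.58 (SE 1.40) for BHLHE40, 0.95 (SE 1.04) for TRIB1 and 0.030 (SE 0.26) for RNF19A, each with an adjusted p of 1.00 by edgeR. Across all genes 0 (0%) passed, 339 (2.28%) had an unadjusted p under 0.05 and DESeq2 called 0. For BHLHE40, Pearson's r of log2 CPM with days was 0.15 (permutation p = 0.504) and Spearman's rho 0.31 (permutation p = 0.155). For TRIB1 they were 0.14 (permutation p = 0.541) and -0.060 (permutation p = 0.785), and for RNF19A 0.030 (permutation p = 0.896) and 0.081 (permutation p = 0.714), all two-sided, with 6 relations computed. Without pregnant replicate 15 and non-pregnant replicate 14, r was 0.24, 0.32 and 0.091. Pregnant replicate 7, at 261 days as far from the median of days as non-pregnant replicate 14, stayed in. The choice between these cows was arbitrary, and r without pregnant replicate 7 instead was not computed.

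The cows with high BHLHE40 did not lie at either end of the interval. Pregnant replicate 23 was at 173 days, non-pregnant replicate 6 at 187 days, non-pregnant replicate 4 at 219 days and pregnant replicate 5 at 225 days (median of all cows 174). Pregnant replicate 7, with TRIB1 at 80.7 CPM and BHLHE40 at 23.2 CPM, was at 261 days. Non-pregnant replicate 14, also at 261 days, had TRIB1 at 25.1 CPM. Pregnant replicate 15, at 274 days the longest, had BHLHE40 at 17.4 CPM and TRIB1 at 22.3 CPM, and pregnant replicate 17, at 128 days the shortest, had 14.6 and 24.5 CPM. Without non-pregnant replicate 4 the slopes of BHLHE40 and TRIB1 were -0.13 (SE 1.33) and -0.065 (SE 0.88).

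**Figure D5:**
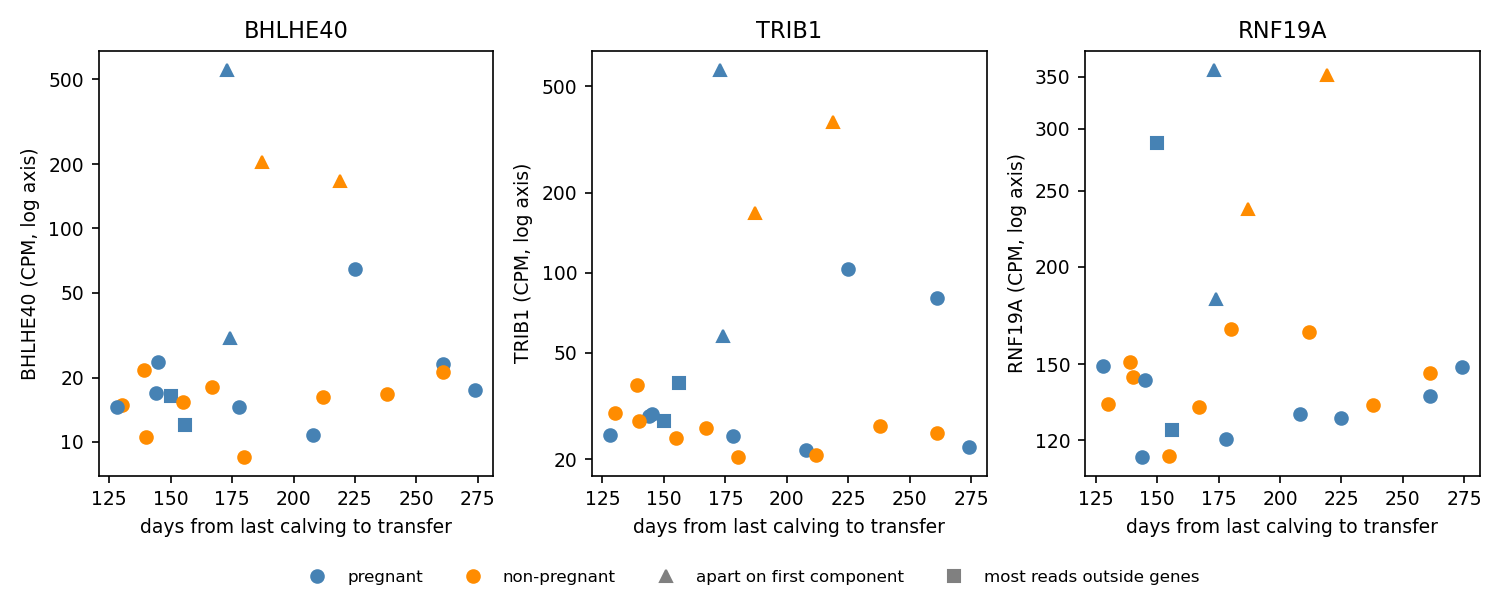
CPM (log axis) of BHLHE40, TRIB1 and RNF19A against days from last calving to embryo transfer, with 1 point per cow, coloured by pregnancy status and shaped by library type (triangles, apart on the first component; squares, most reads outside genes). The high cows lie in the middle of the range, from 173 to 225 days for BHLHE40, and Pearson's r over 23 cows is 0.15, 0.14 and 0.030.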

How the data were processed

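Endometrial RNA of 23 cows was sequenced by the TruSeq stranded total RNA protocol. As the submitters' processing notes name STAR, HTSeq and UMD3.1, the authors mapped reads to that build and took counts per Ensembl gene. Tool versions, the annotation release and whether strand was used are not named in those notes or in the paper (not given in the sources used here). Deposited values are raw counts, read in columns matched to the labels through the sample records, and lines for reads outside genes or ambiguous reads were left out of library sizes. Without a known strand setting, reads of overlapping or antisense genes cannot be told apart. The ambiguous share was at most 0.00941% of reads.

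Counts were analysed in R 4.3.3. The filterByExpr filter of edgeR 4.0.16 left 14852 of 24616 genes. After TMM scaling, the quasi-likelihood test was applied to each, with p-values adjusted by Benjamini-Hochberg over all genes at 0.05. The fits compared pregnancy status, parity class (2 or 3 against 1, with pregnancy status), days from calving (per 100 days, with pregnancy status) and the interaction of both factors. A standard error is the log2 fold change divided by the square root of its F value. Correlations used log2 CPM with a prior count of 2, and those with days had 100000 permutations. Principal components used the variance stabilizing transformation of DESeq2 1.42.0. Shares of reads outside genes were taken over reads in genes, outside genes and ambiguous. The code of the quasi-likelihood fit was tested on counts simulated with the spread of genes of like abundance. That of the rank correlation was tested on values in a known order. The spread of BHLHE40 and TRIB1 was larger, so these runs do not show how the fit behaves for such genes.

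The 3 genes, the libraries left out, the gene lists and the tests were chosen with earlier results of these data known, and the rank-sum test was added after the values were seen. Named beside the 3 genes were, by rule, the genes of the study's list with the 5 highest and 3 lowest rho to each (those printed are the leading ones), RFWD2, and identifiers without a symbol up to 2 per direction. The study's list supplied 50 symbols. Lists of pathway genes and of cell type markers could not be tested, since the available gene table holds no identifier of the files. Cows are separate animals. The Holstein cows that the study used to choose its genes could not be tied to single libraries, so all 23 entered. Alternatives were DESeq2 size factors and Wald test, other filters, other covariates, and libraries left out.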

Additional observations from a re-analysis of the deposited data

Results flagged for a closer look

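Each gene was examined for a cow far from the rest of its group in 6 groups of 5 to 7 cows, which gave 18 examinations, and 12 were marked by Dixon's criterion (gap to the nearest cow over the range of the group). About 1 in 20 groups is marked by chance in normally distributed values, whereas the CPM of these genes are skewed. The groups share cows, so some cows were marked more than once for the same gene. The 3 genes were selected for a skewed spread, so these marks describe that spread.

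Within the cows of parity number 2, and again within non-pregnant cows of parity 2 or 3, non-pregnant replicate 6 stood apart for BHLHE40 (205 CPM) and TRIB1 (167 CPM), where the nearest cow of parity number 2 had 17.4 and 24.4 CPM. Within non-pregnant cows of parity 1, non-pregnant replicate 4 stood apart for BHLHE40 (167 CPM), TRIB1 (366 CPM) and RNF19A (352 CPM), where the nearest cows had 21.7, 37.9 and 151 CPM. Within pregnant cows of parity 1, pregnant replicate 23 stood apart for BHLHE40 (552 CPM), TRIB1 (576 CPM) and RNF19A (357 CPM), where the nearest cows had 64.8, 104 and 182 CPM. These 3 cows were among the 4 apart on the first component of all genes. Pregnant replicate 21, with 76.7% of reads outside genes, stood apart for RNF19A (288 CPM) within the cows of parity number 3 and within pregnant cows of parity 2 or 3, where the nearest cows had 146 and 149 CPM.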

How the results depend on the processing

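No paired analysis was possible because replicate numbers run through both outcomes and no number occurs in both. The lowest raw count of the 3 genes was 105. No adjusted p of the 3 genes was under 0.05 in any alternative run. DESeq2 called 8 genes for pregnancy status, and leaving out 1 cow at a time gave 0 to 1 gene (1 without pregnant replicate 8). The cause of the changes given here was not tested, beyond the smaller number of cows where libraries were left out. DESeq2 gave no p for BHLHE40 with parity class.

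Leaving out 1 cow at a time moved the log2 fold change for pregnancy status from -1.08 (without pregnant replicate 23) to 1.10 (without non-pregnant replicate 6) for BHLHE40, from -0.75 (without pregnant replicate 23) to 1.08 (without non-pregnant replicate 4) for TRIB1, and from -0.18 to 0.13 for RNF19A. For parity class RNF19A ran from -0.26 to 0.062, while BHLHE40 (-2.11 to -0.32) and TRIB1 (-2.21 to -1.07) stayed below 0. For days from calving BHLHE40 ran from -0.13 to 1.38, TRIB1 from -0.065 to 1.56 and RNF19A from -0.13 to 0.13. The highest cow over the median ran from 12.1 to 32.7 for BHLHE40 and from 13.2 to 20.7 for TRIB1, the lower end without pregnant replicate 23, and was 3.96 and 3.91 without the 4 cows apart on the first component.

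With parity class and days as covariates, the log2 fold change for pregnancy status was -0.063 for BHLHE40 and -0.097 for TRIB1. RNF19A changed sign without the 4 cows for pregnancy status (0.034), parity class (0.20) and days (-0.078), without all 6 libraries for parity class (0.041) and the interaction (-0.0035), and without pregnant replicates 20 and 21 for the interaction (-0.21). Its difference of medians between parity classes was 0.054 with 23 cows, 0.099 without the 4 and 0.067 without the 6. Pearson's r was 0.95 for BHLHE40 and TRIB1, 0.73 for BHLHE40 and RNF19A, and 0.72 for TRIB1 and RNF19A. Without the 4 cows rho was -0.026 for BHLHE40 and RNF19A, -0.23 for TRIB1 and RNF19A, and -0.084 for TRIB1 and RFWD2. Without the 6 these were -0.11, -0.25 and -0.13, and RNF19A had -0.13 with DIDO1 and -0.25 with DUS2. Skewness of log2 CPM was 1.79 for BHLHE40 and 1.68 for TRIB1, and skewness of CPM was 3.02 for RNF19A without the 4. The other 277 values from alternatives, and 457 with 1 cow left out, kept direction and side of the threshold, or stayed within the limits set for values without a test.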
